A study of Homo sapiens with 6 samples.

Results

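The 3 control libraries of an RNA-seq study of SACC-83 cells were used to describe which genes this cell line expressed, and at what level, without overexpression. The line SACC-83, an established culture from a human salivary adenoid cystic carcinoma, is the source of all of the study's samples. These 3 libraries, vector replicates 1, 2 and 3, were chosen by their titles and make up 3 of the 6 libraries; their cells carried the empty vector and have the genotype label WT. The other 3 libraries, which overexpressed the circular RNA circMYBL1, were not analysed here, and no group was compared with another. No source says whether the replicates were separate cultures, so the spread given here is that between 3 libraries and may be technical. The line stands for cultured tumour cells only, with no stroma, vessels or immune cells, and the labels give no passage, density or selection.

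Adenoid cystic carcinoma is a slow growing but invasive salivary gland tumour with ductal and myoepithelial cells, known for fusions of MYB or MYBL1 with NFIB and for the receptor KIT on its ductal cells. CD44, the receptor that the series title names, is a cell-surface glycoprotein that binds hyaluronan and is anchored to the actin cytoskeleton through the ERM proteins ezrin, radixin and moesin. The level of a gene is given as FPKM, fragments scaled by transcript length and by the size of the library, a unit that divides by length and so allows levels of different genes to be set beside each other. Values in a row of 3 are vector replicates 1, 2 and 3, in that order.

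The table lists 27328 loci, of which 19974 carry an Ensembl identifier and 7354 are named as new genes with no position given. A locus was called detected at a mean of at least 1 FPKM over the 3 libraries and silent when it was listed at 0 in all of them. By that rule 11237 Ensembl loci, 56.3%, were detected, 3959 (19.8%) were listed at 0 throughout, and 4778 lay between. These shares, 56.3% and 19.8%, are the background against which every gene list is read. The detected Ensembl loci had a median level of 10.6 FPKM, 5867 loci reached 10 FPKM, 505 reached 100 and 32 reached 1000. Depth per library is unknown because the files give FPKM only, so a locus at 0 is one that was listed at 0. Exact zeros were rare among genes of core machinery: of 173 genes for proteasome, RNA polymerase II, splicing, mitochondrial ribosome, translocase and coatomer subunits, a set chosen after the values were seen, 171 were detected. The 1 at 0 was PSMA8, a testis-restricted proteasome subunit. Of 84 cytosolic ribosomal protein genes, 81 were detected and 2 were listed at 0.

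Vector replicate 2 stood apart from the other two. Pearson's r of log2(FPKM + 1) over all 27328 loci was 0.993 between replicates 1 and 3, 0.966 between 1 and 2, and 0.976 between 2 and 3, a description across genes that share these libraries. Of the 12115 detected loci, 604 were at least 2-fold higher in replicate 2 than in both others and 319 at least 2-fold lower, against 14 and 52 for replicate 1 and 11 and 7 for replicate 3. Counts of 2-fold differences, here and below, compare FPKM + 1, so genes at low levels are counted less often. Replicate 2 also had the highest share of summed FPKM from mitochondrially encoded mRNAs (10.2%, against 7.15% and 8.76%) and the lowest from ribosomal protein genes (10.4%, against 12.1% and 11.2%). The deviation of each library from the mean of the others correlated with transcript length at Spearman's rho of -0.24 for replicate 1, 0.18 for replicate 2 and -0.016 for replicate 3 over 11237 genes. The part of these differences in the levels that follow was not tested. The median spread of a detected locus, the SD of log2(FPKM + 1) over the libraries, was 0.25, and 0.11 without replicate 2.

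**Figure D1:**
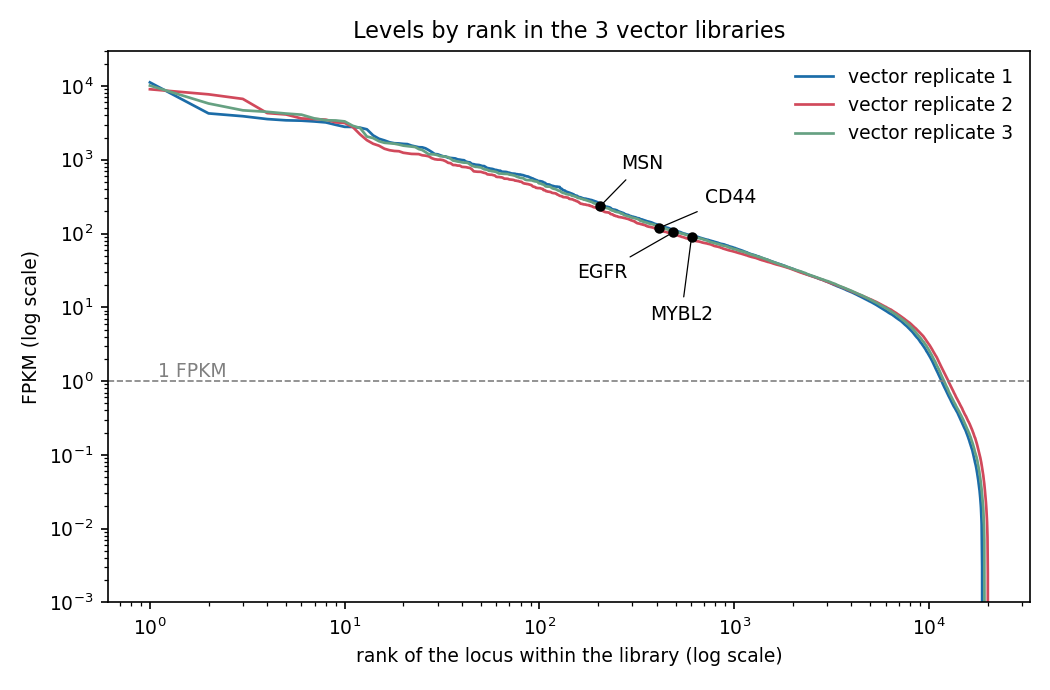
Levels of all loci above 0 in each vector library, ordered from highest to lowest (rank on the x axis and FPKM on the y axis, both on log scales), with the mean levels of MSN, CD44, EGFR and MYBL2 as black points. All 4 genes sit in the upper part of the curve, from rank 205 to rank 604, where the 3 library curves nearly coincide.

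Of the 20 highest loci, 8 were mitochondrially encoded and 3 were unplaced new genes. The single highest locus was one of the unplaced new genes, Homo_sapiens_newGene_4657, at 11178, 9016 and 10115 FPKM. MT-CO1, the mitochondrially encoded catalytic subunit of cytochrome c oxidase, followed at 4246, 7699.9 and 5787 FPKM, with replicate 2 the highest. The elongation factor gene EEF1A1 stood at 3889, 3148 and 4673 FPKM and FTH1, the ferritin heavy chain, at 2792, 3627 and 3406 FPKM; 62.4% of the exon bases of FTH1 also lie in annotated exons of BEST1. RPS2, RPL35 and RPL7A were the ribosomal protein genes among the 20. ACTB, cytoplasmic actin, was measured at 3557, 1549.8 and 3307 FPKM, and GAPDH, a glycolytic enzyme, at 2781, 1841 and 2692 FPKM. Both of these usual reference genes were lowest in replicate 2. The new locus Homo_sapiens_newGene_4656 was listed at 3204, 1243 and 1187 FPKM, high in replicate 1 alone. Together the 10 highest loci held 11.8% ± 1.42 (SD, n = 3) of the summed FPKM.

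CD44 and its cytoskeletal partners were among the higher expressed genes of the line. MSN (moesin, ENSG00000147065, GRCh38 chrX:65588377-65741931, plus strand) was measured at 225, 243 and 235 FPKM, a mean of 235 ± 8.94 FPKM (SD, n = 3), rank 205 of all loci, with 99.0% of Ensembl loci below it. CD44 (ENSG00000026508, chr11:35138870-35232402, plus strand) was measured at 124, 113 and 122 FPKM, a mean of 119.6 ± 5.87 FPKM (SD, n = 3), rank 413. EZR, ezrin, reached 294, 156 and 304 FPKM, and RDX, radixin, 16.2, 23 and 18.3 FPKM. The ezrin and moesin levels overlapped across libraries, while radixin was the lowest of the ERM genes in each. CD44 and MSN varied little, with a coefficient of variation of 4.91% and 3.81%, against a median of 19.1% over detected Ensembl loci. Of the 20 genes of the CD44 and hyaluronan list, 12 (60.0%) were detected, against 56.3% of all Ensembl loci. The hyaluronan receptor of the mitotic spindle, HMMR, stood at 17.6, 14.9 and 17 FPKM, and NF2, the ERM-related tumour suppressor merlin, at 10.01, 6.64 and 9.06 FPKM. HYAL2, a hyaluronidase anchored to the membrane, was at 12.4, 14.4 and 11.8 FPKM and CEMIP2, a membrane protein linked to hyaluronan breakdown, at 6.55, 9.55 and 6.5 FPKM. The hyaluronan synthases HAS1, HAS2 and HAS3, named outside the rule for named genes, had means of 0.0119, 0.00754 and 2.89 FPKM, so that only HAS3 was detected. LYVE1, the lymphatic hyaluronan receptor, and TLR2 were listed at 0.

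EGFR and MYBL2 were of the same order. EGFR (ENSG00000146648, chr7:55019021-55211628, plus strand), the epidermal growth factor receptor, was measured at 104, 84.6 and 123 FPKM, a mean of 104 ± 19.3 FPKM (SD, n = 3), rank 486. MYBL2 (ENSG00000101057, chr20:43667019-43716496, plus strand), a transcription factor of proliferating cells, was at 103, 72.6 and 95.3 FPKM, a mean of 90.2 ± 15.6 FPKM (SD, n = 3), rank 604. Both were lowest in replicate 2, and the ranges of the 2 genes overlapped.

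The sequences just upstream of 6 genes are given as examples of promoters of detected genes and of genes at 0. The genes were chosen after their values were seen, so no link between promoter sequence and level can be read from them. Each line gives the 100 bases before the most upstream annotated exon, from RefSeq GRCh38.p14, 5′ to 3′ on the gene's strand, with every CpG in capitals. The first 3 genes are the receptor EGFR, the matrix gene FN1 and MYBL2, all detected; the others, KIT, the salivary peptide gene STATH and the liver gene ALB, were listed at 0 in all 3 libraries.
EGFR, chr7:55018917-55019016, plus strand: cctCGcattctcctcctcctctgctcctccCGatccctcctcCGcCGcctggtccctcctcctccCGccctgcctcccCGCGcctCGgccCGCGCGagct
FN1, chr2:215436173-215436272, minus strand: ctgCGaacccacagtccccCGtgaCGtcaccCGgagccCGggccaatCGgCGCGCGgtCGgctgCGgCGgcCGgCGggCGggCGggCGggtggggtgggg
MYBL2, chr20:43666919-43667018, plus strand: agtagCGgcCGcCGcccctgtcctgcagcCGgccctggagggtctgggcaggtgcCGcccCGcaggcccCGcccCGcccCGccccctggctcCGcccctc
KIT, chr4:54657818-54657917, plus strand: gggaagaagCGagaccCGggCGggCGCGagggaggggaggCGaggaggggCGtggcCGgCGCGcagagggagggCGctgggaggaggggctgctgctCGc
STATH, chr4:69995830-69995929, plus strand: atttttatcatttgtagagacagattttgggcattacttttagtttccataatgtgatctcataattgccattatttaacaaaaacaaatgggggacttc
ALB, chr4:73404139-73404238, plus strand: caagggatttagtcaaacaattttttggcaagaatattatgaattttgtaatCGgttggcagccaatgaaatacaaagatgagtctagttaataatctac
The printed stretch held 11 CpG in EGFR, 17 in FN1, 10 in MYBL2 and 12 in KIT, but none in STATH and 1 in ALB. Over 250 upstream bases the ratio of observed to expected CpG was 0.88 for EGFR, 0.88 for FN1, 0.84 for MYBL2, 0.97 for KIT, 0.23 for STATH and 0.55 for ALB. The median over all 27305 promoters of the same length was 0.56, and 47.4% had a ratio of at least 0.6. For the 76.7% of Ensembl loci with a matched promoter, the median was 0.74, and 64.2% had such a ratio. KIT, listed at 0, had a higher ratio than each of the 3 detected genes. The motif TATAAA, searched on both strands, was in none of the 6 windows and in 11.1% of all promoters.

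Keratins of simple and of basal epithelia were both expressed. KRT8 and KRT18, the keratin pair of simple epithelia, were measured at 919, 741 and 937 FPKM and at 564, 534 and 644 FPKM, ranks 40 and 75; 16.3% of the exon bases of KRT18 lie in exons annotated to KRT8. KRT7, a ductal keratin, stood at 512, 234 and 435 FPKM. KRT5, a basal keratin, was at 119.9, 412 and 142 FPKM, and KRT17 at 288, 520.5 and 362 FPKM. KRT14, the partner of KRT5 in basal cells and of the label check, was at 17.3, 41.1 and 19.1 FPKM, below KRT5 in each library. The basal keratins were highest in replicate 2, while KRT7 was lowest there. Of 42 keratins, 16 (38.1%) were detected and 13 were listed at 0, among them KRT1, KRT2, KRT3 and KRT20. KRT6A, a keratin of activated keratinocytes, was at 97.5, 323 and 106 FPKM, and KRT13, a keratin of oral mucosa, at 9.53, 195 and 25.7 FPKM. Of the 16 detected keratins, 8 were at least 2-fold higher in replicate 2 than in both others, against 604 of all 12115 detected loci. KRT80 stood at 49.1, 25 and 63.1 FPKM. EPCAM, an epithelial adhesion molecule, varied little, at 82.2, 76.3 and 80.1 FPKM. CDH1, E-cadherin, was lower at 9.2, 21.3 and 14.6 FPKM. CDH2, N-cadherin, a cadherin of mesenchymal and neural cells named outside the rule, had a similar mean, 14.8 against 15 FPKM, and was at 19.5, 8.69 and 16.2 FPKM. CDH1 was highest and CDH2 lowest in replicate 2.

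Checked against its label, several genes by which adenoid cystic carcinoma is known were at 0 or had a mean under 1 FPKM. Of 16 genes set for this check, 10 were detected, 1 was listed at 0 and 5 lay between. KIT was listed at 0 in all 3 libraries. MYB, the transcription factor of the tumour's typical fusion, was at 0.748, 1.2 and 0.705 FPKM, and its fusion partner NFIB at 0.932, 2.44 and 1.51 FPKM. SOX10, a marker of intercalated duct and myoepithelial cells, was at 0.241, 0.814 and 0.321 FPKM, and EN1, a homeobox gene of this tumour, at 0.05, 0.261 and 0.0577 FPKM. CNN1, calponin of contractile cells, had 0.139, 0.0453 and 0.254 FPKM, and KRT19 had 0.243, 0.449 and 1.1 FPKM. TP63, the basal and myoepithelial transcription factor, was detected at 11.7, 33.7 and 13.9 FPKM, and ACTA2, smooth muscle actin, at 1.39, 7.24 and 2.82 FPKM. ACTA2 shares 12.8% of its exon bases with FAS, so its level is uncertain. The detected genes of the check were thus epithelial and basal keratins, EPCAM, CDH1, TP63, NFIB and ACTA2, and the levels of KIT, MYB, SOX10 and EN1 went against the label. In bulk RNA, few cells with a gene and little RNA per cell cannot be told apart, so a level under 1 FPKM does not say how many cells carried the transcript. MYBL1, the alternative fusion gene and host gene of the study's circular RNA by name, was at 9.04, 7.15 and 10.3 FPKM; these values cannot separate linear from circular or fused transcripts.

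On the wider list of 31 adenoid cystic and myoepithelial genes, 17 (54.8%) were detected, and FABP7, KIT and S100B were listed at 0. CALD1, caldesmon, was at 30.6, 37.2 and 30.8 FPKM. Genes for saliva were at 0 or under the threshold with 1 exception: of 40 secretory products, 25 (62.5%) were listed at 0, 14 lay above 0 but under 1 FPKM and only LCN2, an iron-binding lipocalin also made by inflamed epithelia, was detected, at 2.23, 11.1 and 2.64 FPKM. The amylase genes AMY1A, AMY1B and AMY1C, the acinar water channel AQP5, AZGP1 and BPIFA1 were among the 25. Without replicate 2 the count of detected products was still 1.

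**Figure D2:**
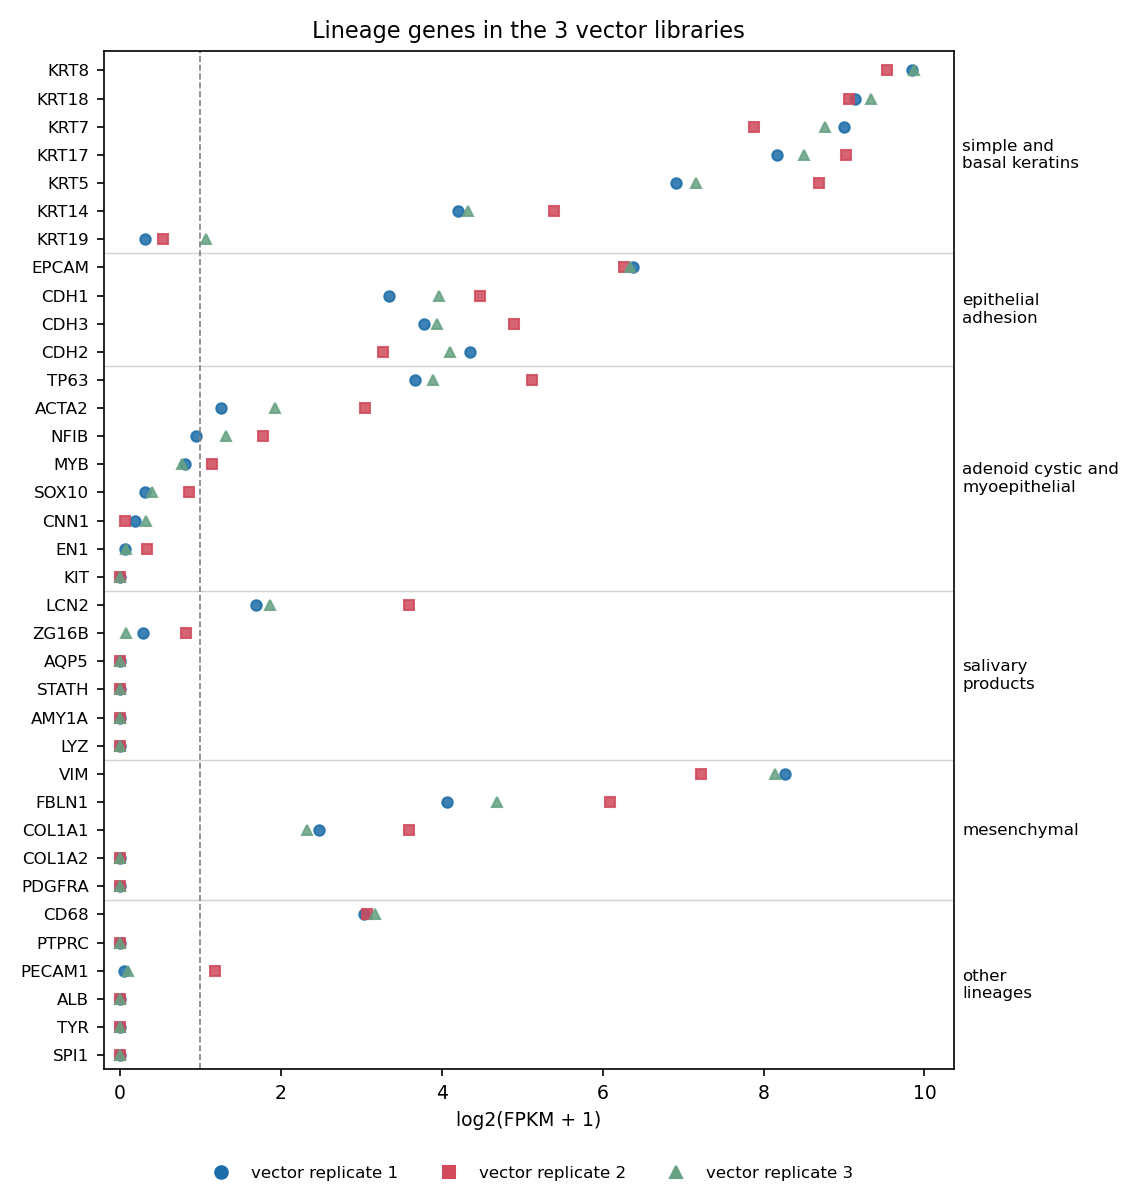
Levels of lineage genes in each vector library as log2(FPKM + 1) on the x axis, with circles for replicate 1, squares for replicate 2, triangles for replicate 3 and a dashed line at 1 FPKM. Keratins 8, 18, 7, 17 and 5 lie far to the right, whereas KIT, AQP5, STATH, AMY1A, PTPRC and ALB sit at 0 in every library; several genes of the panel were chosen after their values were seen.

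Of 28 genes of squamous differentiation, which cover desmosomes and the cornified envelope, 13 (46.4%) were detected and 8 were listed at 0. JUP, plakoglobin, stood at 90.4, 184 and 126 FPKM, and DSP, desmoplakin, which ties desmosomes to keratin, at 75.1, 165 and 84.8 FPKM. DSG2, a desmoglein of simple epithelia, was at 42.1, 67 and 54.6 FPKM, and PKP3, a plakophilin, at 46.9, 48.9 and 56.4 FPKM. DSP and JUP were highest in replicate 2 and PKP3 in replicate 3. LY6D, a surface protein of stratified epithelia, was at 7.59, 121 and 14.3 FPKM, and the cross-linking enzyme TGM1 at 3.27, 16.9 and 6.53 FPKM. Both, like PKP1 (3.96, 14.4 and 5.26 FPKM) and DSC3 (3.64, 11.4 and 4.59 FPKM), were at least 2-fold higher in replicate 2 than in the others. This held for 7 of the 13 detected genes, against 604 of all 12115 detected loci. FLG, filaggrin, and CDSN, corneodesmosin, named outside the rule, were detected at 3.08, 2.0 and 4.17 FPKM and at 1.83, 2.09 and 1.85 FPKM. Replicate 2 had a summed level of 668 FPKM for this list, against 283 and 367. Listed at 0 were CALML3, DSC1, DSG1, KRTDAP, LORICRIN and SPRR2A, and of 19 late cornified envelope genes none was detected and 17 were at 0.

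Among the 16 mesenchymal markers listed, VIM was the highest. The list leaves out the matrix genes FN1, COL5A1 and THBS1, which had means of 510, 144 and 195 FPKM. VIM, vimentin, was at 307, 148 and 281 FPKM, rank 193, while COL1A2, the second chain of type I collagen, and the fibroblast receptor PDGFRA were listed at 0. COL1A1, the partner chain, was detected at 4.57, 11.1 and 4.02 FPKM. FBLN1, fibulin, was at 15.8, 67.5 and 24.7 FPKM, and S100A4, often used as a fibroblast marker, at 6.75, 24 and 8.51 FPKM. VIM was lowest in replicate 2 and the other 4 detected genes of the list were highest there. In all 5 of 16 mesenchymal markers (31.2%) were detected.

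Most markers of other tissues were at 0 or had a mean under 1 FPKM. Of 23 immune, endothelial and blood markers, only CD68, a lysosomal protein abundant in macrophages, was detected, at 7.19, 7.38 and 8.04 FPKM; CD3D, CD3E, CD4, MS4A1 and PF4 were listed at 0, as was PTPRC, the leukocyte common antigen. The summed level of these 23 genes was 9.14, 11.2 and 10.8 FPKM. Of 40 markers of neural, muscle, liver, gut and pigment cells, 6 (15.0%) were detected, against 56.3% of all Ensembl loci. In this list 17 (42.5%) were at 0, against 19.8% of all Ensembl loci, with AFP, ALB, APOB, GCG, INS and KLK3 among them. TUBB3, a neuronal tubulin that many tumour cells also make, was the highest at 20.5, 5.52 and 15.8 FPKM, though 35.8% of its exon bases are shared with another locus. ENO2, a neuronal enolase, was at 8.16, 12 and 10.6 FPKM, and MBP, whose locus also makes transcripts outside myelin, at 4.12, 5.7 and 5.2 FPKM. MAP2, a microtubule protein, was at 2.24, 8.54 and 3.77 FPKM, and PAX8, a thyroid and kidney factor, at 2.94, 0.916 and 2.59 FPKM. PMEL, of pigment cells, was at 0.772, 1.74 and 0.539 FPKM and passed 1 FPKM through replicate 2 alone.

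Among receptor tyrosine kinases, EPHA2, DDR1 and EGFR formed the top of the order. EPHA2, an ephrin receptor, was measured at 122, 92.6 and 148 FPKM, and DDR1, a collagen receptor, at 69, 166 and 82 FPKM. EPHA2 exceeded EGFR in each library, while DDR1 was the lowest of these 3 receptors in replicates 1 and 3 and the highest in replicate 2. MET, the receptor for hepatocyte growth factor, came next at 64.1, 45.1 and 65.8 FPKM, below EGFR in each library, and AXL, the receptor for GAS6, stood at 44.6, 19.6 and 47.1 FPKM. RYK, a Wnt receptor without kinase activity, was steady at 25.1, 26.7 and 26.5 FPKM. EPHB4, an ephrin receptor, was at 16.8, 37.4 and 21 FPKM, and PTK7, a pseudokinase of planar polarity, at 11.5, 23 and 13.9 FPKM. Both were highest in replicate 2, whereas AXL was lowest there. ERBB2 and FGFR3, named outside the rule, were at 10.7, 19.1 and 13.4 FPKM and at 3.47, 26.6 and 6.76 FPKM, the second highest in replicate 2. Of 58 receptor tyrosine kinases, 26 (44.8%) were detected and 9 were listed at 0. Those at 0 included the vascular receptor FLT1 and the receptors EPHA3, EPHA7, FLT3, KDR and KIT.

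Surface antigens were the receptor-like list with the highest share detected, 38 of 44 (86.4%). BSG, basigin, a partner of lactate transporters, was at 279.7, 351 and 309.5 FPKM, and CD63, a tetraspanin used to mark extracellular vesicles, at 264, 309 and 290.0 FPKM. The tetraspanins CD9 and CD151 were at 129.6, 337 and 158 FPKM and at 208, 192 and 190.1 FPKM; CD9 was highest in replicate 2, whereas CD63 and CD151 kept within a narrow range. F3, tissue factor, the trigger of coagulation, was at 299, 126 and 339.8 FPKM. The amino acid transporter chains SLC3A2 and SLC7A5, which form 1 heterodimer, were at 290.0, 133 and 302 FPKM and at 284, 153 and 257 FPKM, and both were lowest in replicate 2. SDC4, a heparan sulfate proteoglycan, was at 133, 293 and 153 FPKM. CEACAM5 and the stem cell antigen PROM1 were listed at 0.

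Receptors for cytokines and death ligands were detected in 37 of 55 cases (67.3%). TNFRSF12A, the TWEAK receptor, led at 274, 86.2 and 244 FPKM. IL7R, the interleukin-7 receptor known mainly from lymphocytes, followed at 125, 102 and 149 FPKM, rank 391. IL2RG, the common gamma chain with which IL7R signals, chosen for that link after the values were seen, stood at 0.434, 1.46 and 1.07 FPKM, a mean just under the threshold. TNFRSF1A was at 59.1, 123 and 66.2 FPKM and LTBR, the lymphotoxin receptor, at 60.03, 85.8 and 72.6 FPKM. TNFRSF12A was lowest and TNFRSF1A highest in replicate 2. IFNGR1, a chain of the interferon gamma receptor, stood at 27.4, 68.5 and 31.2 FPKM, and OSMR, for oncostatin M, at 28.1, 50.4 and 34.4 FPKM. TNFRSF10B, a receptor for TRAIL, was at 32.2, 43.6 and 37.4 FPKM. TNFRSF21, a death receptor, varied little at 29.2, 31.3 and 32.3 FPKM. CNTFR and CSF3R were listed at 0.

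G protein-coupled receptors were mostly low: 28 of 100 (28.0%) were detected, 56 were above 0 but under 1 FPKM, and none reached 100. GPRC5A, an orphan receptor induced by retinoic acid, was the highest at 71.7, 60.4 and 87.1 FPKM. It exceeded every other member of the list in each library. FZD6, a Wnt receptor, came second at 22.7, 51.5 and 28.9 FPKM, and FZD2 was at 12.4, 12.5 and 11.5 FPKM. F2RL1, activated by trypsin-like proteases, was at 17, 20.2 and 17.1 FPKM, and F2R, the thrombin receptor, at 7.74, 22.2 and 10.3 FPKM. The thrombin receptor was the lower of the pair in replicates 1 and 3 and the higher in replicate 2. ADORA2B, an adenosine receptor, was at 18.1, 20.6 and 15.8 FPKM and LGR4, which binds R-spondins, at 9.89, 11.6 and 10.7 FPKM. GPRC5C was at 9.19, 17.8 and 8.63 FPKM. The 16 at 0 included the chemokine receptors CCR2 and CCR8, ADORA3, ADRA1A, AVPR1A and CHRM2.

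**Figure D3:**
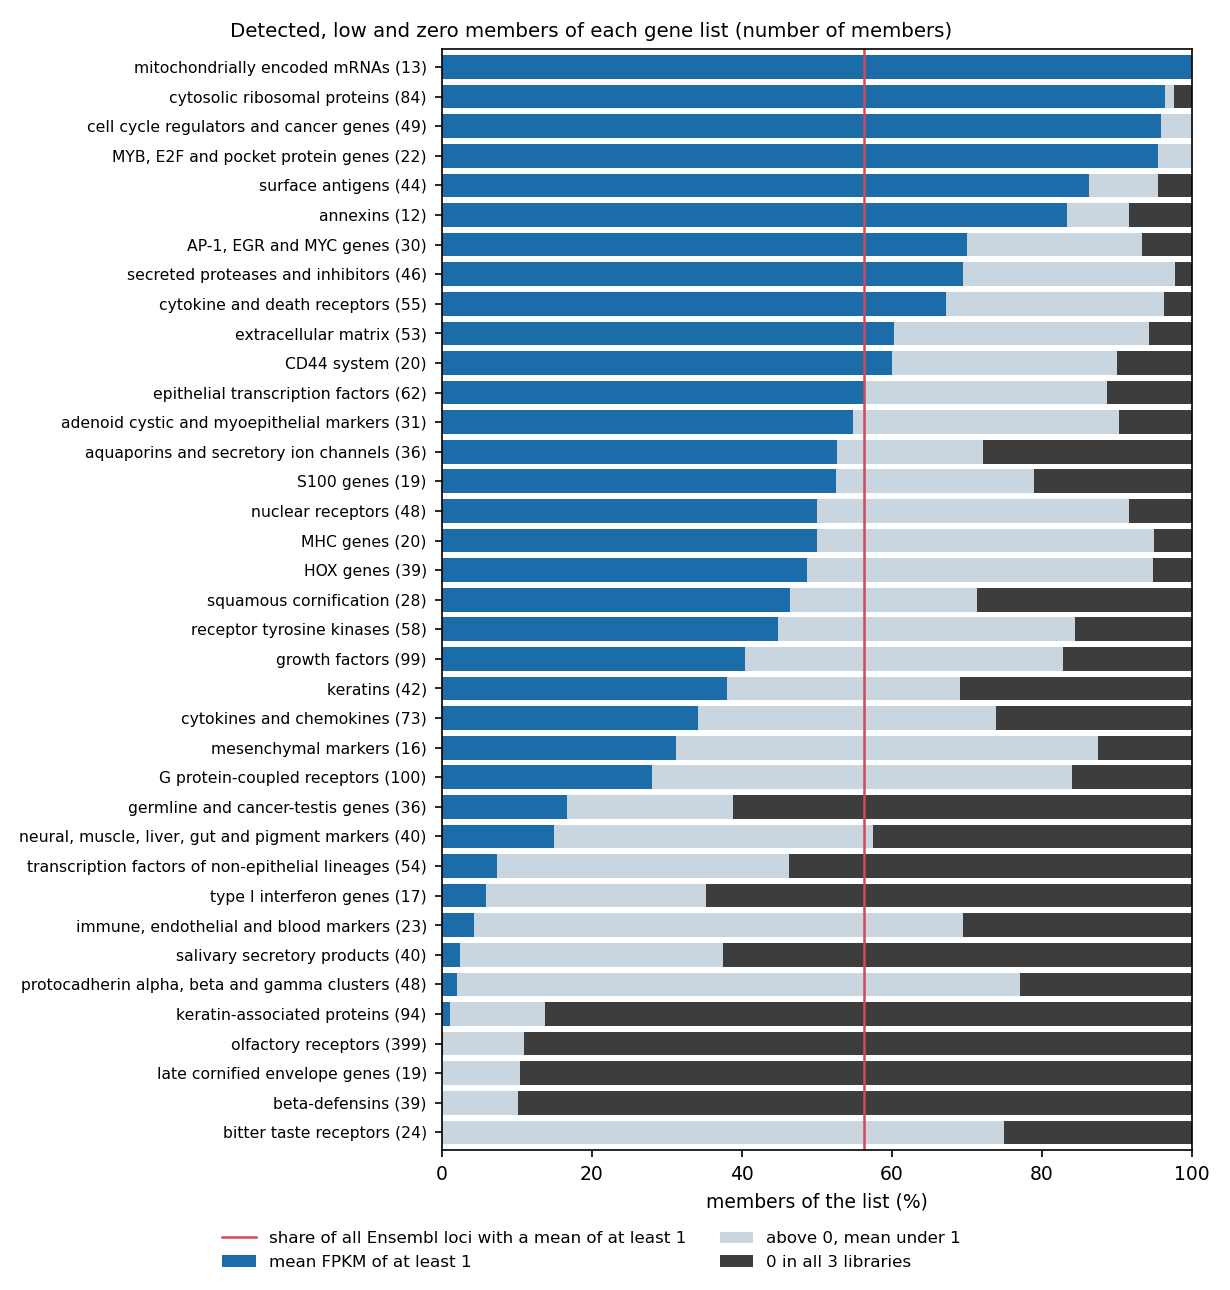
Share of members of each gene list (in percent, with the number of members in parentheses) that had a mean of at least 1 FPKM (blue), lay above 0 but under 1 (light) or were listed at 0 in all 3 libraries (dark); the red line is the 56.3% of all Ensembl loci that were detected. The lists run from mitochondrially encoded mRNAs with every member detected down to late cornified envelope genes, beta-defensins and bitter taste receptors with none.

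Transcription factors of proliferation were expressed almost without gap. Of 22 MYB, E2F and pocket protein genes, 21 (95.5%) were detected, MYB being the exception, and MYBL2 was the highest. FOXM1, which acts with MYBL2 on mitotic genes, was at 79.1, 62.7 and 72.5 FPKM; TFDP1, the E2F dimer partner, at 69, 60.1 and 67.3 FPKM; and E2F4, a repressive E2F, at 52.4, 38.9 and 52.6 FPKM. E2F1 and E2F3, activating E2Fs, were at 20.9, 33.7 and 19.3 FPKM and at 18.6, 19.9 and 18.8 FPKM. RB1, the retinoblastoma protein gene, was at 15.7, 22.3 and 16.7 FPKM and RBBP4 at 16.9, 21.3 and 18.8 FPKM. FOXM1 shares 15.9% of its exon bases with ITFG2. MYBL2 exceeded FOXM1, and FOXM1 exceeded MYBL1, in each library.

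Of 49 cell cycle and cancer genes, 47 (95.9%) were detected. PCNA, the sliding clamp of replication, was at 186, 162 and 158 FPKM, and TOP2A, a topoisomerase of dividing cells, at 75.9, 129 and 79.3 FPKM. CCNB1, cyclin B1, was at 110.0, 78.5 and 93.9 FPKM, and its kinase CDK1 at 49.3, 51.8 and 38.5 FPKM. CDK4 was at 80.1, 53.7 and 76.3 FPKM, with 43.2% of its exon bases shared with TSPAN31. The survival genes MCL1 and BCL2L1 were at 142, 193 and 163 FPKM and at 71.9, 69.8 and 76.7 FPKM, and CTNNB1, beta-catenin, at 76.2, 82.7 and 73.1 FPKM. BCL2 and NOTCH3, the 2 members not detected, had means of 0.429 and 0.201 FPKM and were named for that reason. CDKN2A, a tumour suppressor gene named outside the rule, was at 18.3, 30.7 and 18.2 FPKM.

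AP-1 and other immediate-early genes differed widely between the libraries. MYC was at 189.9, 155 and 219 FPKM and ATF4, the factor of the integrated stress response, at 167, 146 and 178 FPKM, both highest in replicate 3 and lowest in replicate 2. FOSL1, the AP-1 subunit FRA1, was at 125, 16.1 and 117 FPKM, and JUN at 73, 11.6 and 73.7 FPKM; replicates 1 and 3 lay close together and replicate 2 far below for both. IER3 and ATF3 were also lowest there, at 101, 36.9 and 127 FPKM and at 51.2, 18.4 and 45 FPKM. JUNB and KLF4 went the other way, at 72.2, 167 and 104 FPKM and at 32.6, 86 and 44.2 FPKM. Of the 30 genes of this list, 21 (70.0%) were detected, 5 of them at least 2-fold lower in replicate 2 than in both others and 1 at least 2-fold higher. Over all 12115 detected loci, 319 were lower and 604 higher by this rule. BATF and MYCN were listed at 0.

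Of 62 transcription factors of epithelial identity, 35 (56.5%) were detected, close to the background of 56.3%. SNAI2, a repressor of E-cadherin that basal cells also use, was the highest at 68.8, 32.2 and 81.9 FPKM. ETS2 was at 36.3, 53.2 and 39.8 FPKM and its relative ETS1 at 29.2, 13.9 and 25.5 FPKM. TFAP2A, a factor of surface ectoderm, was at 15.7, 27.7 and 18.2 FPKM. SNAI2 and ETS1 were lowest in replicate 2, TFAP2A highest. SOX15 was at 21.7, 25.1 and 27.6 FPKM, and the ETS family member ELF1 at 21.3, 29.98 and 21.6 FPKM. NFIC, a relative of NFIB, was at 31.1, 20.8 and 20.2 FPKM, above NFIB in each library. The intestinal factors CDX1 and CDX2, the liver factor FOXA3, GRHL2 and SOX11 were listed at 0. GRHL2 usually accompanies E-cadherin in epithelia; here it was at 0 while CDH1 was detected in each library.

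Factors of non-epithelial lineages were detected less often than Ensembl loci at large, 4 of 54 (7.41%) against 56.3%. In all, 29 were listed at 0, among them DPPA4, EBF1, HAND1, HAND2 and IKZF1. FLI1, of blood and endothelium, was at 5.59, 4.25 and 5.58 FPKM, and MEF2C, of muscle and neurons, at 4.37, 5.68 and 3.78 FPKM. MITF, of pigment cells, was at 1.87, 2.51 and 2.34 FPKM, and the pluripotency factor POU5F1 at 1.18, 2.06 and 0.661 FPKM. None of the 4 reached 10 FPKM. The count of 4 was 7 at a threshold of 0.5 FPKM and 1 at 5 FPKM.

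Of 48 nuclear receptors, 24 were detected. RXRA, the common dimer partner, was at 33.1, 65.4 and 43.7 FPKM, above RXRB (13.1, 15.6 and 14.2 FPKM) in each library. NR3C1, the glucocorticoid receptor, was at 20.1, 44.3 and 26.6 FPKM, and RARG, a retinoic acid receptor, at 7.93, 26.9 and 11 FPKM. RXRA, NR3C1 and RARG were all highest in replicate 2. NR1H2, a liver X receptor, was at 27.9, 34.3 and 25.7 FPKM, and ESRRA, of energy metabolism, at 26.5, 32 and 29.1 FPKM. NR1D1, the clock repressor, was at 22.4, 7.27 and 30.8 FPKM, lowest in replicate 2. NR2C2 was at 13.1, 15.8 and 15.7 FPKM. NR0B1, NR1I2 and NR5A1 were among those listed at 0.

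HOX genes are transcription factors that record position along the body axis. At the threshold of 1 FPKM, a larger share was detected in the posterior part of the clusters, which has the high paralog numbers. Of 39 HOX genes, 19 (48.7%) were detected, none above 10 FPKM in the mean. By paralog group, 4 of 12 genes (33.3%) of groups 1 to 4 and 4 of 11 (36.4%) of groups 5 to 8 were detected. In groups 9 to 13 it was 11 of 16 (68.8%), against 56.3% of all Ensembl loci. Several genes of groups 5 to 8 lay just under 1 FPKM, such as HOXA5, HOXB5 and HOXD8 with means of 0.929, 0.734 and 0.571 FPKM. At a threshold of 0.5 FPKM the share in groups 9 to 13 was no longer above that in groups 5 to 8. By cluster the counts were 5 of 11 for HOXA, 4 of 10 for HOXB, 7 of 9 for HOXC and 3 of 9 for HOXD. HOXB7 was at 10.1, 7.95 and 11.9 FPKM, HOXC10 at 10.4, 8.74 and 8.73 FPKM and HOXD10 at 5.91, 15.2 and 6.97 FPKM; their ranges overlapped, HOXD10 being highest in replicate 2. HOXD11 was at 4.55, 9.7 and 5.63 FPKM, in the same order of libraries as HOXD10. HOXC9 was at 4.44, 6.42 and 4.18 FPKM and HOXC6 at 3.17, 7.22 and 3.91 FPKM. The remaining 2 of the 8 highest were HOXB9 at 4.57, 5.39 and 3.91 FPKM and HOXD9 at 3.1, 6.32 and 4.16 FPKM. HOXD3 and HOXD4 were listed at 0; 62.2% and 80.5% of their exon bases lie in exons of another locus, so these zeros are uncertain. The HOX count rested on the threshold, with 5 genes at 5 FPKM or more and 29 at 1 TPM or more. Rescaling to TPM raised every value above 0, so 1 TPM was a lower threshold than 1 FPKM. Other HOX genes overlap too: HOXD10 and HOXD11 share 16.8% and 21.4% of their exon bases with each other.

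**Figure D4:**
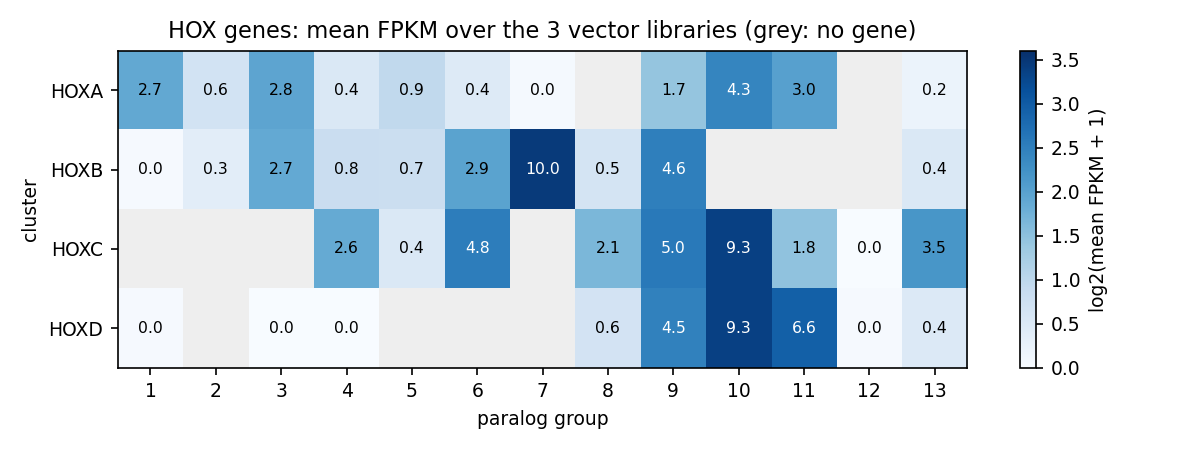
Mean level of each HOX gene over the 3 vector libraries, with clusters as rows, paralog groups as columns, the mean FPKM printed in each cell and colour giving log2(mean FPKM + 1). Groups 9 to 11 hold most of the dark cells, HOXB7 is the darkest cell outside them, and HOXD3 and HOXD4 are empty of signal.

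Secreted growth factors were detected in 40 of 99 cases (40.4%). CCN1, a matricellular protein, was the highest member in replicates 1 and 3, at 285, 81.8 and 359 FPKM. GRN, progranulin, took that place in replicate 2, at 109, 206 and 136 FPKM. VEGFA, a factor for blood vessels, was at 28.6, 55.4 and 34.9 FPKM, and VEGFC, which acts on lymphatic vessels, at 34.7, 20.2 and 30.9 FPKM. In replicate 1 the lymphatic factor was the higher of the pair, and in replicates 2 and 3 the blood vessel factor. FGF2, a fibroblast growth factor, was at 27.3, 45.4 and 30.7 FPKM, and PDGFA, a ligand for PDGFRA, at 20.6, 27.4 and 23.8 FPKM. PDGFRA was listed at 0, but 15.8% of its exon bases are shared with another locus, so this zero is uncertain. ADM, adrenomedullin, was at 56.1, 22.2 and 65.8 FPKM and BMP1, a procollagen protease, at 16.9, 36.8 and 24 FPKM. KITLG, the ligand of KIT, and AREG and TGFA, ligands of EGFR, all named outside the rule, were at 17.6, 10.2 and 15.9 FPKM, at 15.7, 6.22 and 14.7 FPKM and at 12.2, 9.23 and 12.6 FPKM. HBEGF, a further EGFR ligand, was at 9.6, 6.65 and 11.5 FPKM, whereas EGF, EREG, BTC and EPGN had means of 0.00352, 0.00359, 0.812 and 0.571 FPKM; of 7 EGFR ligands, chosen after their values were seen, 3 were thus detected. At 0 were BMP3, BMP7, FGF10, FGF16, FGF20 and FGF23, and also HGF, the ligand of MET, named here for its receptor.

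Of 73 cytokines and chemokines, 25 (34.2%) were detected and 19 listed at 0. MIF was the highest at 316, 243 and 303 FPKM, with 32.2% of its exon bases shared with another locus. IL32 and IL18 were steady at 87.7, 83.5 and 80.6 FPKM and at 83.2, 79.3 and 88.8 FPKM. IL1A, an alarmin of epithelia, was at 59.7, 17.8 and 60.4 FPKM, and IL1B at 27.6, 18.8 and 33.3 FPKM. IL6 was at 55.8, 10.9 and 52.5 FPKM, and CSF2, which encodes GM-CSF, at 34.8, 6.03 and 36.7 FPKM. All 4 of these inflammatory cytokine genes were lowest in replicate 2. TNFSF10, the death ligand TRAIL, was the reverse at 3.63, 105 and 9.38 FPKM. CCL11, CCL2, CCL4, CCL7, CXCL12 and CXCL13 were listed at 0.

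Proteases and their inhibitors gave 32 detected genes of 46 (69.6%). CTSD, a lysosomal protease, was at 136, 406 and 185 FPKM, with 41.7% of its exon bases shared with another locus, and CTSZ was at 92.9, 119 and 103 FPKM. SLPI, an inhibitor of leukocyte elastase found in saliva, was at 181, 295 and 185 FPKM, and CST3, cystatin C, at 85.6, 123 and 84.1 FPKM. SERPINB2, an inhibitor of plasminogen activators, was at 311, 17.4 and 286 FPKM, far lower in replicate 2, and shares 19.9% of its exon bases with SERPINB10. TIMP1, an inhibitor of matrix metalloproteinases, was steady at 108, 116 and 112 FPKM, and SPINT2 was at 82.7, 133 and 94 FPKM. MMP8 was listed at 0.

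Of 53 genes of the extracellular matrix, 32 (60.4%) were detected. FN1, fibronectin, was the highest at 529.7, 475 and 525 FPKM, rank 94. LAMB3, a laminin chain of epithelial basement membranes, followed at 376, 215 and 431 FPKM. COL17A1, the hemidesmosomal collagen, was steady at 119, 141 and 141 FPKM. LAMB3 was lowest in replicate 2. LAMA5, a laminin chain of many basement membranes, was at 72.6, 161 and 120.5 FPKM, and AGRN, the proteoglycan agrin, at 77.5, 140.1 and 92.6 FPKM. COL5A1, a fibrillar collagen, was at 110.8, 182.4 and 138.3 FPKM; these 3 were highest in replicate 2. THBS1, thrombospondin, was at 341, 23.3 and 220.3 FPKM, far below the others in replicate 2. BGN, COL1A2 and LAMB4 were listed at 0.

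Ion transport genes were detected in 19 of 36 cases (52.8%). ATP1B3, a beta chain of the sodium pump, was at 103, 94.9 and 102 FPKM. AQP3, a water and glycerol channel of basal cells, was at 3.1, 202 and 9.48 FPKM and SCNN1A, a subunit of the epithelial sodium channel, at 5.34, 72.6 and 10.7 FPKM, both far higher in replicate 2 than in the others. The other subunits, SCNN1B and SCNN1G, named here for SCNN1A, were listed at 0, as were AQP2, AQP4, AQP5, AQP6, AQP8 and AQP9. ITPR3, a calcium release channel that salivary acini use, was at 41.8, 59 and 56.9 FPKM. SLC4A2, an anion exchanger, was at 35.7, 34.5 and 33.1 FPKM, and ANO6, a lipid scramblase, at 15.8, 22.3 and 18.7 FPKM.

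The MHC class I genes were expressed and class II nearly not. B2M, the class I light chain, was at 1517, 2777 and 1500.5 FPKM, rank 14. Of the heavy chains HLA-B was at 145, 413 and 146 FPKM and HLA-C at 169.7, 375 and 198 FPKM. HLA-E was at 77, 115 and 87.3 FPKM and HLA-F at 17.5, 67.6 and 22.7 FPKM. TAPBP and TAP1, of peptide loading, were at 34.7, 80.7 and 37.1 FPKM and at 14.1, 37.4 and 14.3 FPKM. All 7 of these were highest in replicate 2. Of 20 MHC genes 10 were detected, and HLA-DPB1 was listed at 0; the HLA genes are close in sequence and their reads may have been split between them.

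Among the calcium-binding S100 genes, S100A11, S100A6 and S100A2 were at 658, 691 and 696 FPKM, at 279, 403 and 264 FPKM and at 371, 233 and 279 FPKM, while 10 of the 19 (52.6%) were detected, against 56.3% of all Ensembl loci, and 4 were listed at 0. ANXA2, which binds S100A10 at membranes, was at 1557, 848 and 1396 FPKM, ANXA1 at 508, 464 and 531 FPKM and ANXA5 at 177, 111 and 161 FPKM, and 10 of 12 annexins (83.3%) were detected.

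Of 36 germline and cancer-testis genes, 22 (61.1%) were listed at 0, against 19.8% of all Ensembl loci, 8 lay above 0 but under 1 FPKM and 6 were detected. Those at 0 included BRDT, CT45A1, CTAG1B, CTAG2, DAZL and DDX4. MAGEA1 was the highest at 19.4, 15 and 18.6 FPKM and MAGEA4 followed at 9.19, 12.2 and 11.2 FPKM. PRAME, another tumour antigen, was at 5.16, 9.1 and 6.1 FPKM, and CT83 at 4.86, 3.87 and 5.01 FPKM. HORMAD1, of meiotic chromosomes, was at 1.41, 2.28 and 1.5 FPKM, and MAGEA9 at 1.71, 1.53 and 1.88 FPKM. None of the 6 ranged 2-fold or more between the libraries. MAGEA genes are near-identical copies, and their values are uncertain.

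Several large tissue-restricted families had few or no detected members. Of 399 olfactory receptor genes, 355 (89.0%) were listed at 0 and only OR2A7 was detected, at 0.959, 4.04 and 1.89 FPKM. Of 94 keratin-associated protein genes of hair, 81 (86.2%) were at 0 and KRTAP5-1 alone was detected, at 0.318, 2.41 and 0.318 FPKM, a count that became 0 without replicate 2. Of 39 beta-defensins, 35 were at 0 and none was detected. Among 17 type I interferon genes 11 were at 0, and IFNE, an interferon of mucosal epithelia, was the only one detected, at 1.86, 1.39 and 2.42 FPKM. Bitter taste receptors and clustered protocadherins were low rather than at 0: 18 of 24 taste receptors and 36 of 48 protocadherins lay above 0 but under 1 FPKM, and only PCDHGB7 was detected, at 0.504, 2.24 and 0.83 FPKM, which again fell under the threshold without replicate 2.

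Among the autosomes and X, the share of detected Ensembl loci ran from 42.0% on X to 63.6% on 16. Loci elsewhere, such as those on Y and the mitochondrial genome, were left out of this count. Of these chromosomes X had the highest share of loci at 0 (36.2%), followed by 21 (32.5%) and 11 (29.3%), against 19.8% of all Ensembl loci.

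Among the 10 detected loci with the widest range between the libraries, AQP3, TNFSF10, KRT13 and MUC1, a cell-surface mucin at 4.78, 98.5 and 18.5 FPKM, were each highest in replicate 2, next in replicate 3 and lowest in replicate 1, and SERPINB2 was lowest in replicate 2. Homo_sapiens_newGene_12006, at 83.1, 1346 and 252 FPKM, had the same order as AQP3. Several overlap other genes on the annotation. RPL36A-HNRNPH2, a read-through locus with all of its exon bases shared, was at 19.7, 0 and 0 FPKM; TOMM6, also fully shared, was at 91.2, 3.85 and 20.5 FPKM; and ENSG00000268173, with 96.1% shared, was at 12, 15.7 and 0.0781 FPKM. BEST1, a chloride channel gene that shares 14.2% of its exon bases with FTH1, was at 1.69, 49.4 and 48.6 FPKM. SERPINB2 shares 19.9% with SERPINB10. Values of these 5 are uncertain, since no source used here says how fragments on shared bases were counted.

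**Figure D5:**
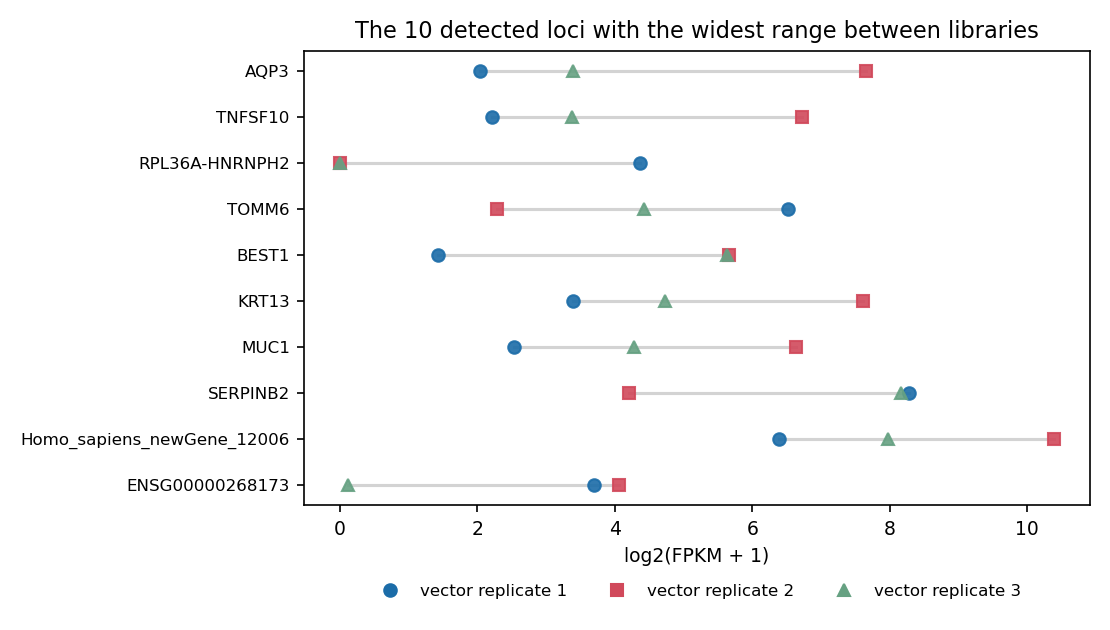
The 10 detected loci with the widest range of log2(FPKM + 1), shown on the x axis, with circles, squares and triangles for vector replicates 1, 2 and 3 and a grey line from lowest to highest. The squares of replicate 2 sit at an end of the range for each of the 10 loci, but replicate 2 is not always the library apart. In BEST1 and RPL36A-HNRNPH2, the latter listed at 0 in 2 libraries, replicate 1 stands apart, and in ENSG00000268173 replicate 3 does.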

How the data were processed

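RNA was extracted with TRIzol and libraries were made from purified mRNA with a NEBNext Ultra kit, per the labels' protocols. Per the submitters' processing notes the tool was HISAT2 and the build GRCh38; no source used here gives versions, the counting method, its annotation or its strand setting. The deposited values are FPKM computed by the authors, 1 value per locus and library, with no counts. Only the 3 vector columns were used, and no test was run.

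Means, SDs and ranks were computed with python 3.11.15, numpy 2.4.6, pandas 2.3.3 and scipy 1.17.1, and the summaries were tested on simulated data. Positions and exon overlaps came from GENCODE release 29 with bedtools 2.31.1; all 19974 Ensembl identifiers matched. Genes with at least 10% of their exon bases in another gene's exons are uncertain, since the counting of shared bases is unknown. They were 31 of the 306 Ensembl loci that the naming rule picks.

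Members and all 37 gene lists were chosen with earlier results of these data known. The rule named MSN, CD44, EGFR and MYBL2, the 20 highest loci, up to 8 highest detected and 6 zero members per list (3 highest for families), and the 10 loci of widest range. The label check had its own 16 genes. Some genes that the rule picks are not reported here. One listed gene, BAGE, could not be matched. A comparison of promoter features by level was void, since 71.5% of silent and 69.2% of low loci had a RefSeq promoter, under the 80% needed.

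Alternatives were other thresholds, TPM rescaling, Ensembl loci only, other pseudocounts, no mitochondrially encoded loci and leaving out each library.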

Additional observations from a re-analysis of the deposited data

How the results depend on the processing

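The number of detected loci ranged from 8421 to 14486 and of silent loci from 3959 to 7487 over the alternatives run, within 1.5 times of 12115 and 5449. The median spread between libraries was 0.25, but 0.15 with no filter on low values; leaving out 1 library in turn gave 0.11 (without vector replicate 2) to 0.29 (without replicate 3). The 10 highest loci held 11.8% of summed FPKM, and 9.01% with mitochondrially encoded loci left out. Of 37 list counts, 14 moved by over 1.5 times at a threshold of 5 FPKM, 6 at 0.5 FPKM, 7 under TPM and 2 without replicate 2. The TPM setting kept the cut at 1, which was a lower threshold than 1 FPKM. With each library left out in turn, under TPM and over Ensembl loci only, CD44 ranked between 403 and 428 and MSN between 191 and 217. EGFR ranked between 463 and 567 and MYBL2 between 550 and 637. Depth is unknown, so no counting error can be given and low levels are the least certain. No paired analysis was possible because no groups were compared.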
